A study of Mus musculus with 14 samples.

Results

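Chromatin accessibility in the liver was compared between mice lacking matrin-3 in hepatocytes and floxed controls, both fed chow. These animals gave 6 of the 14 ATAC-seq samples of the series: 3 knockout and 3 floxed females. The comparison takes every column of the chow table and every one of its 88203 intervals. Both groups carried floxed Matr3 alleles. The knockouts also carried Albumin-Cre, a transgene whose promoter is active in hepatocytes, so other liver cells are not targeted. None of the 14 samples is labelled as carrying Cre without the floxed alleles, so an effect of Cre and one of the deletion cannot be told apart. Chow was given for 16 weeks starting at an age of 7 weeks, and nuclei came from 50 mg of frozen tissue. Sources used here do not say whether these animals were fasted. The titles number the animals singly, and each library is read as 1 animal. Column headers give the genotype and a number from 1 to 3 that could not be tied to a titled animal. "Knockout 1" below is therefore the column with that number, and values are given in the order 1, 2, 3.

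Matrin-3 is an abundant protein of the inner nuclear matrix that binds RNA and DNA, and it is known for roles in splicing, RNA stability and the organisation of chromatin. ATAC-seq uses a transposase to insert adapters into DNA that is not shielded by nucleosomes, so that read counts rise where chromatin is open. In hepatocytes the promoters and enhancers of metabolic genes are open, and the bodies of genes encoding secreted plasma proteins can be open along much of their length.

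Reads within intervals totalled between 15531451 and 34981046 per library, with both libraries numbered 2 (15531451 in the knockout and 17138347 in the floxed one) far below the other 4 (31261893 or more). Levels are CPM, the counts scaled to a common library total after TMM normalisation. A log2 fold change sets knockout against floxed livers and comes with its standard error (SE). An interval or locus is called where the adjusted p of edgeR's quasi-likelihood test is below 0.05. Intervals within 1000 bp of a RefSeq start site are called start-site intervals here (19.8%). The others lie in a gene body (49.3%) or between genes (31.0%). At Matr3 itself the strongest interval (chromosome 18, 35561987 to 35562487) held 30.4, 24.7 and 28.2 CPM in knockouts 1, 2 and 3, and 26.6, 24.6 and 30.5 CPM in floxed livers 1, 2 and 3. These ranges overlap, and the locus summed over its 7 intervals did not pass either (log2 fold change -0.09, SE 0.07, edgeR adjusted p = 0.734). Sources used here do not place the deleted part of the gene, so Matr3 accessibility does not check the labels. Hepatocyte genes were open in this tissue: Alb held a mean of 1307 CPM in floxed livers over 28 intervals, and Cps1, the first enzyme of the urea cycle, 1536 CPM over 125.

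The 8 hepatocyte markers summed to 4746 to 5636 CPM in knockout and 5184 to 6748 CPM in floxed livers, and 7 of their loci had negative fold changes. Some markers of other liver cells were open too, such as Spi1 of macrophages (10.1 CPM per interval in floxed livers) and Klrb1c of natural killer cells (29.8), beside 12.3 for Cps1. Macrophage markers ran from 4.66 (C1qc) to 10.2 (Csf1r) and lymphocyte markers from 3.57 (Cd3e) to 29.8. The median level of all intervals was 7.97 CPM. Intervals counted for a marker may lie up to 50000 bp from the gene. Sums over loci with unequal numbers of intervals set no order between cell types. Of the 46 measured marker loci of macrophages, sinusoidal endothelium, stellate cells, bile duct cells, lymphocytes and neutrophils, none had an unadjusted edgeR p below 0.05 on the lower side and 1 had on the higher side (Reln, log2 fold change 0.34). Their summed levels were nevertheless mostly smaller in knockouts. The 12 endothelial markers summed to 595 to 664 CPM in knockout and 683 to 695 CPM in floxed livers, and the 6 lymphocyte markers to 493 to 511 CPM in knockout and 525 to 559 CPM in floxed livers, without overlap in either case. Each separation rested on the highest locus of its list, and the groups overlap with that locus left out. Among endothelial markers it was Gata4 (156, 143 and 172 CPM in knockout, 189, 162 and 184 CPM in floxed livers). Among lymphocyte markers it was Klrb1c (224, 202 and 219 CPM in knockout, 238, 221 and 255 CPM in floxed livers). The 9 macrophage markers with intervals gave 148 to 195 CPM in knockout and 166 to 217 CPM in floxed livers, and the 5 of neutrophils 36.3 to 51.5 CPM in knockout and 47.2 to 62.1 CPM in floxed livers. For the 11 stellate-cell markers the sums were 199.7 to 239 CPM in knockout and 196 to 241 CPM in floxed livers, and for the 3 of bile duct cells 83.2 to 104 CPM in knockout and 89.7 to 94.4 CPM in floxed livers. The part of these differences in the results below was not tested. In bulk tissue, fewer cells of a type and less open chromatin per cell cannot be told apart.

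On chow the called differences were mostly losses in knockouts, and these losses lay in 6 genes. edgeR called 20 of 88203 intervals (0.0227%), 19 lower (0.0215%) and 1 higher (0.00113%). C3, the central complement component, held 11 of the 19. Serpina3k, a secreted serine protease inhibitor, held 3. Phlda1, a pleckstrin homology-like protein, held 2. Lifr (the receptor of leukaemia inhibitory factor), Fabp5 (a fatty acid binding protein) and Gpr108, the neighbour of C3, held 1 each. The single gain lay upstream of Alb, the albumin gene. Each interval is listed as called in 1 genotype: the 19 losses were all called in floxed livers and the gain in knockouts, so each entered the table through the group where it is high. Over all intervals the split was closer to even, with 3322 lower (3.77%) and 2650 higher (3.0%) at an unadjusted p below 0.05, and the calls depend on single libraries. With the column number as a block the count was 126 (0.143%), 118 lower (0.134%) and 8 higher (0.00907%), and all 20 intervals remained called. No label says what that number marks, so this fit is an alternative only. In every called interval the 3 knockout values lay apart from the 3 floxed values, which held for 11.7% of all intervals. The calls rest on the same values, so this separation adds no support to them.

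**Figure D1:**
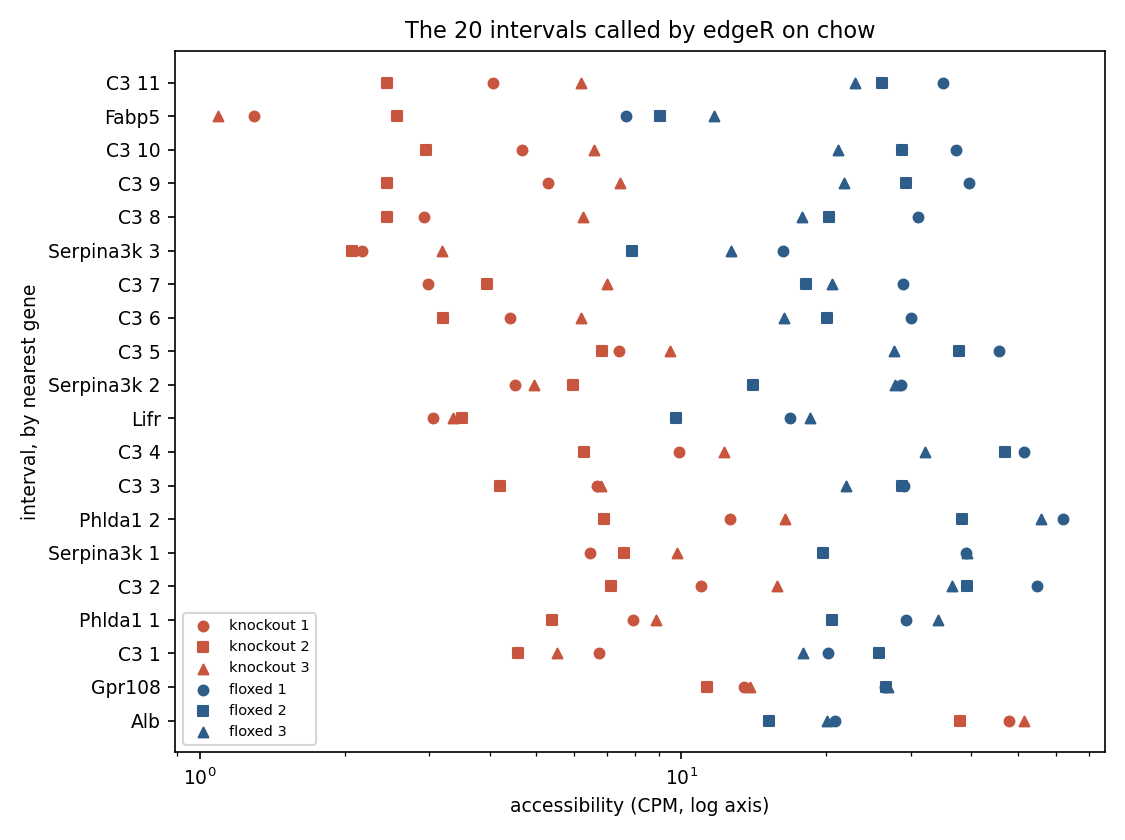
Accessibility of each of the 20 called intervals in each library, in CPM on a log axis, with knockouts in red, floxed livers in blue and the symbol giving the library number. Knockouts lie to the left of floxed livers in 19 intervals and to the right in 1, and no interval has overlapping groups.

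C3 was open at its start site and along its gene body in floxed livers, and the fold change was smaller over the start than in the called intervals. Its start-site window is shown because it frames that contrast. The RefSeq sequence (GRCm38.p6, chr17:57228087-57228386, minus strand) runs from 250 bases before to 50 after the start, with a match to the C/EBP motif in capitals:
C3: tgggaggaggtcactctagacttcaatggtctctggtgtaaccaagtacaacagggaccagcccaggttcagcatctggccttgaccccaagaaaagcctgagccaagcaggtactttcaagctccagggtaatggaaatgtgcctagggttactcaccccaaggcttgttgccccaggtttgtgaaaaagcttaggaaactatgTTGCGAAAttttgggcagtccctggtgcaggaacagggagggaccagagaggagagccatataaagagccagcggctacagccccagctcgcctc
C/EBP factors are liver regulators of acute-phase genes, and their motif TTGCNNAA, on either strand, was found in 10.8% of 32851 such windows. A match is only a description of these letters.

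The interval over this C3 window (chromosome 17, 57227814 to 57228314) held 35.3, 18.3 and 40.8 CPM in knockouts 1, 2 and 3, and 53.8, 39.8 and 46.1 CPM in floxed livers 1, 2 and 3. Knockout 2 was the lowest library, knockout 3 lay within the floxed range, and the difference did not pass (log2 fold change -0.56, SE 0.24, edgeR adjusted p = 0.728). A second interval within 1 kb of the start (57226915 to 57227415) held 6.69, 5.77 and 6.51 CPM in knockout and 15.4, 15.0 and 12.9 CPM in floxed livers (log2 fold change -1.19, SE 0.16, edgeR adjusted p = 0.0613), with the groups apart. Further inside the gene they were far apart. The interval with the largest called loss in C3 (chromosome 17, 57224717 to 57225217, 3.17 kb downstream of the start) held 4.06, 2.45 and 6.19 CPM in knockouts 1, 2 and 3, and 35.0, 26.1 and 22.9 CPM in floxed livers 1, 2 and 3 (log2 fold change -2.69, SE 0.29, edgeR adjusted p = 0.0261). Another, at 57223104 to 57223604, had 7.43, 6.84 and 9.46 CPM in knockout and 45.6, 37.6 and 27.6 CPM in floxed livers (log2 fold change -2.21, SE 0.20, edgeR adjusted p = 0.0209). The knockouts were the 3 lowest libraries at both. All 43 intervals assigned to C3 had negative fold changes. An unadjusted p below 0.05 on the lower side was reached by 42 of the 43, against 3.77% of all intervals, and 38 had groups that did not overlap (6.04% of all intervals on the lower side). The 11 called ones lay between 1.603 and 11.6 kb downstream of the start. Towards the far end of the gene knockout 3 came close to floxed livers 2 and 3, and it was the highest knockout in 15 of the 19 called losses of all genes. C3 is described because it holds calls, as are Gpr108, Phlda1 and Lifr below. Intervals of a locus come from the same libraries. Counts of lower or separate intervals at these loci are therefore a description and carry no test.

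**Figure D2:**
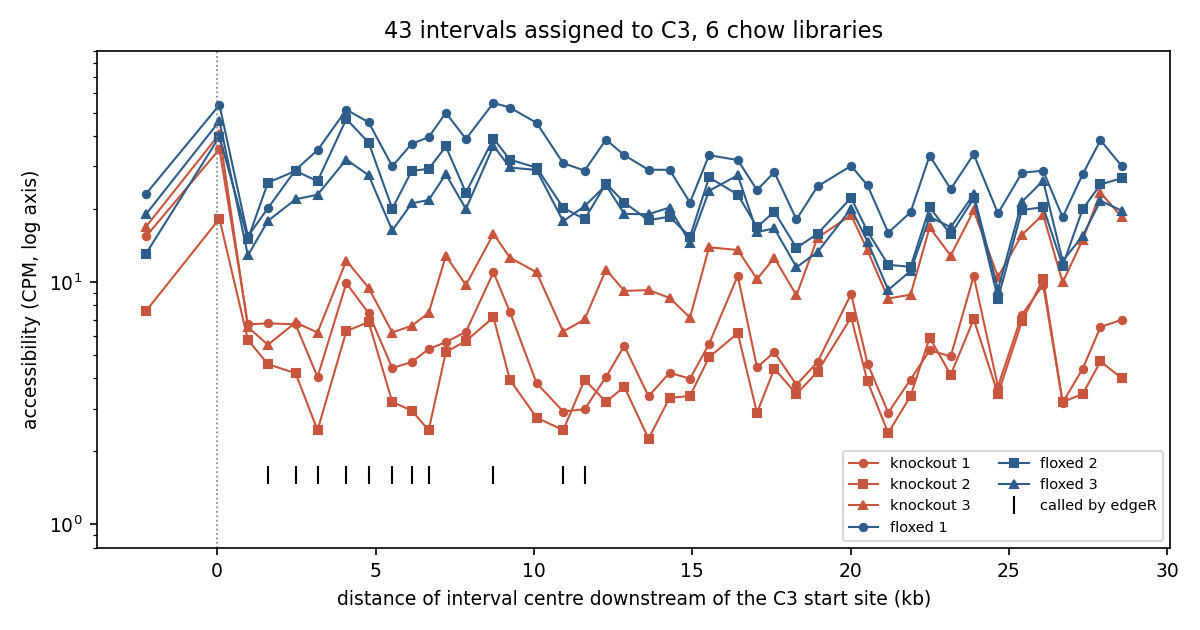
Accessibility of the 43 intervals assigned to C3 in each of the 6 libraries, in CPM on a log axis, against the distance of the interval's centre downstream of the start site in kb, with ticks under the called intervals. The libraries lie closer together at the start site and separate by genotype inside the gene, and knockout 3 approaches the floxed livers towards the far end of the gene.

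The contrast within C3 was also expressed as the mean of its 33 gene-body intervals over the interval nearest the start, a value free of library scaling. This ratio was 0.159, 0.232 and 0.264 in knockouts 1, 2 and 3, and 0.610, 0.592 and 0.449 in floxed livers 1, 2 and 3. It was lower in each knockout than in each floxed liver. Over the second start-site interval the ratio was 0.842, 0.734 and 1.65 in knockouts and 2.13, 1.57 and 1.61 in floxed livers. There knockout 3 lay above floxed 2 and 3, so the separation holds against the nearest interval only. Both ratios were chosen after C3's values were seen and carry no test.

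Gpr108, a membrane protein of the Golgi, lies next to C3 and had a similar profile. Its 3 start-site intervals were level between genotypes (log2 fold changes 0.17, -0.03 and -0.06). The strongest of them (57247697 to 57248197) held 60.9, 57.8 and 63.1 CPM in knockout and 50.4, 53.2 and 57.7 CPM in floxed livers. The called interval (chromosome 17, 57236060 to 57236560), in the part of the gene nearest to C3, held 13.5, 11.3 and 13.9 CPM in knockouts 1, 2 and 3, and 26.5, 26.6 and 26.9 CPM in floxed livers 1, 2 and 3 (log2 fold change -1.04, SE 0.14, edgeR adjusted p = 0.0480). The floxed livers were nearly alike there, and no knockout reached 14 CPM. Of the 17 Gpr108 intervals, 11 had an unadjusted p below 0.05, all lower, against 3.77% of all intervals on that side.

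Serpina3k is a member of the serpin cluster on chromosome 12, and its reads may be shared with near-identical neighbours, since sources used here do not give the handling of reads with several matches. Its called interval with the largest loss (104341427 to 104341927) held 2.17, 2.07 and 3.18 CPM in knockouts 1, 2 and 3, and 16.2, 7.91 and 12.7 CPM in floxed livers 1, 2 and 3 (log2 fold change -2.30, SE 0.28, edgeR adjusted p = 0.0410). Knockouts were tightly grouped and floxed 2 was the lowest floxed liver. At 104346204 to 104346704, beyond the gene, the values were 3.05, 3.07 and 10.4 CPM in knockout and 67.6, 15.5 and 72.1 CPM in floxed livers, a log2 fold change of -3.20 that did not pass (adjusted p = 0.143). There floxed 2 was much closer to the knockouts than to floxed 1 and 3. The outermost intervals of the locus, at 104336786 and 104351773, showed log2 fold changes of -0.04 and -0.18.

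Phlda1 lost accessibility towards 1 end of the gene. The called gene-body interval (chromosome 10, 111508649 to 111509149) held 7.92, 5.39 and 8.87 CPM in knockouts 1, 2 and 3, and 29.3, 20.5 and 34.2 CPM in floxed livers 1, 2 and 3 (log2 fold change -1.91, SE 0.23, edgeR adjusted p = 0.0383). The adjacent call, 0.736 kb outside the gene, held 12.6, 6.90 and 16.4 CPM in knockout and 61.8, 38.2 and 55.8 CPM in floxed livers (log2 fold change -2.10, SE 0.27, edgeR adjusted p = 0.0480). The groups did not overlap at either, and the libraries numbered 2 were the lowest of their group. At the strongest Phlda1 interval (111506235 to 111506735) the log2 fold change was -0.30 (adjusted p = 0.734). Of the 20 intervals, 7 had an unadjusted p below 0.05, all lower, against 3.77% of all intervals on that side.

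Fabp5, which carries fatty acids in the cytosol, followed the same course along its body. Its called interval (chromosome 3, 10014333 to 10014833) held 1.30, 2.57 and 1.09 CPM in knockouts 1, 2 and 3, and 7.67, 9.05 and 11.7 CPM in floxed livers 1, 2 and 3 (log2 fold change -2.59, SE 0.32, edgeR adjusted p = 0.0410). Knockout levels were among the lowest of any called interval, and floxed 3 was the highest library. From 10012360 onwards the successive gene-body fold changes were -0.37, -0.94, -1.64 and -2.59, of which the last passed. All 15 intervals of the locus were lower in knockouts.

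Lifr, the receptor subunit through which leukaemia inhibitory factor signals to STAT3, has more than 1 start site in RefSeq, and the values differ between them. Both windows are shown for that reason, as read from RefSeq (GRCm38.p6, plus strand). The first lies at chr15:7129322-7129621 and the second, further into the locus, at chr15:7140292-7140591. Neither holds a match to the 5 motifs searched, so no letter is in capitals:
Lifr first start: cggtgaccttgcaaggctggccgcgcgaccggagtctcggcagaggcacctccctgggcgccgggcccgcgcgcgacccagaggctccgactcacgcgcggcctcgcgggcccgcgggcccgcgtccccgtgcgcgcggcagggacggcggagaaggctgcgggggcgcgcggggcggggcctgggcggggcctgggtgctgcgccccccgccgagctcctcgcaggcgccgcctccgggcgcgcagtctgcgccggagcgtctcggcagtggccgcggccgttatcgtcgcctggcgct
Lifr second start: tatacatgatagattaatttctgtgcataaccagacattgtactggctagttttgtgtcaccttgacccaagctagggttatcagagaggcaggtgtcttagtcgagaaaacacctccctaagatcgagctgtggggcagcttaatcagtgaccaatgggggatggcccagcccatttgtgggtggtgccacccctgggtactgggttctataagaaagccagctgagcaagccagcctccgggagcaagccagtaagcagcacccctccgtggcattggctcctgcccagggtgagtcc
The motifs, searched on both strands, were TTCNNNGAA for STAT (8.30% of all windows), TTGCNNAA for C/EBP, TGTTTAC for FOXA (3.65%), TGANTCA for AP-1 (7.81%) and ATCGAT for Onecut (0.925%).

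At the first Lifr start the interval 7129065 to 7129565 held 47.3, 47.3 and 51.2 CPM in knockouts 1, 2 and 3, and 47.6, 51.1 and 55.2 CPM in floxed livers 1, 2 and 3, with overlapping groups and a log2 fold change of -0.08. Over the second start (7140286 to 7140786) the values were 7.82, 6.90 and 6.13 CPM in knockout and 17.2, 10.1 and 20.9 CPM in floxed livers (log2 fold change -1.22, SE 0.24, edgeR adjusted p = 0.197). There each knockout lay under each floxed liver, although the interval did not pass. The called interval lay 2.38 kb downstream of the second start (7142672 to 7143172) and held 3.05, 3.51 and 3.36 CPM in knockout and 16.8, 9.73 and 18.5 CPM in floxed livers (log2 fold change -2.19, SE 0.24, edgeR adjusted p = 0.0261). The knockouts were nearly alike, whereas floxed 2 stood well under floxed 1 and 3. Along the locus, 50 of 59 intervals had an unadjusted p below 0.05 and 40 did not overlap, all on the lower side. Of all intervals, 3.77% and 6.04% did so on that side.

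The 1 called gain lay 10.7 kb upstream of the Alb start (chromosome 5, 90449902 to 90450402). It held 47.9, 37.9 and 51.4 CPM in knockouts 1, 2 and 3, and 20.8, 15.2 and 20.02 CPM in floxed livers 1, 2 and 3 (log2 fold change 1.29, SE 0.16, edgeR adjusted p = 0.0410). Each knockout lay well above the highest floxed liver, and the lowest value in each group came from a library numbered 2. Its neighbours did not move with it. The intervals on either side, at 90448876 and 90457160, had log2 fold changes of -0.24 and -0.19. At the start site of Alb, encoding the main carrier protein of plasma, 1 interval stood at 0.61 (adjusted p = 0.756), and the first gene-body intervals ran from -0.43 to -0.66 without passing. Summed over 28 intervals, Alb held 1309, 917 and 1215 CPM in knockout and 1614, 1047 and 1259.7 CPM in floxed livers (log2 fold change -0.19, SE 0.18, edgeR adjusted p = 0.763), so that no net difference was detectable over the locus. Only the knockouts carried Albumin-Cre, and sources used here do not say which albumin sequences that transgene holds. Where the transgene and the Alb gene share sequence, their reads cannot be told apart. This applies to the called gain and to the start site alike.

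Start sites held few of the losses. None of the 17421 start-site intervals was called, whereas 18 of the 20 calls lay in gene bodies and 2 between genes. Serpina3k, Phlda1 and Fabp5, which hold 6 of the 19 losses, have no start site in the RefSeq tables, so none of their intervals could be classed as one. At an unadjusted p below 0.05, 4.94% of gene-body, 3.65% of intergenic and 1.02% of start-site intervals were lower. The shares that were higher were 2.67%, 3.83% and 2.53%. Start-site intervals were also stronger, with a median level of 14.2 CPM against 7.24 in gene bodies. With scaling that depends on the level (loess offsets), the lower share at start sites was 1.91% and that in gene bodies 4.88%. Over all intervals this scaling turned the split at an unadjusted p below 0.05 from 3322 lower and 2650 higher to 3432 and 3307. The part of the level in the contrast between places was not tested further.

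Within loci the order was mostly the same. In the 16 loci with intervals of both kinds that held a call or many shared calls of DESeq2 and limma-voom, or that are Cish and Cyp2c70, the start-site median was less negative than the median of the other intervals, as -0.21 against -1.50 at Lifr and -0.87 against -1.77 at C3. It was -0.49 against -1.78 at Hacl1, an enzyme of peroxisomal fatty acid breakdown, and -0.76 against -1.88 at Onecut1, a hepatocyte transcription factor. Cyp2c70, a bile acid hydroxylase, had -0.45 against -1.40. These loci were chosen largely for their losses outside start sites, so the order is a description and carries no test. Of all 40 named loci with a lower sum and intervals of both kinds, 37 had this order and 3 did not: Hamp (-0.60 against -0.44), Gadd45g (-0.55 against -0.30) and Apoa5 (-0.78 against -0.39). Of the 12 with a higher sum, the start-site median was the smaller gain in 9.

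**Figure D3:**
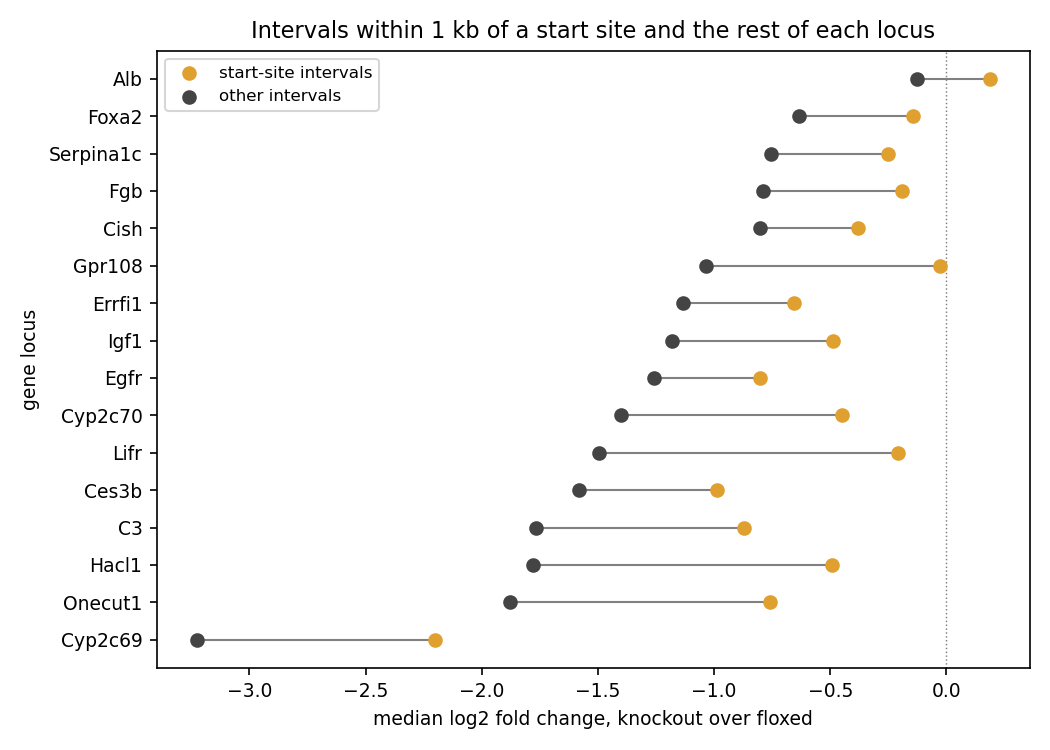
Median log2 fold change of knockout over floxed for intervals within 1 kb of a start site (orange) and for all other intervals (dark) in 16 loci. The orange point lies to the right of the dark point in each locus, and Alb alone has a start-site median above 0.

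Counts summed per gene gave 1 value per locus for 15921 protein-coding genes. edgeR called none of them (0%), with 501 lower (3.15%) and 542 higher (3.4%) at an unadjusted p below 0.05. DESeq2 called 32 (0.201%), limma-voom 1 (Abi3bp, 0.00628%) and the fit with the column number as a block 10 (0.0628%). The gene nearest to the threshold was a gain, Abi3bp, an extracellular matrix protein. Its 7 intervals summed to 62.8, 58.5 and 57.9 CPM in knockout and 37.7, 33.9 and 33.3 CPM in floxed livers (log2 fold change 0.77, SE 0.09, edgeR adjusted p = 0.120). Knockouts lay well above floxed livers, with narrow spread in both. It passed with DESeq2 (adjusted p = 2.9e-09), with limma-voom (0.0324) and with the block (0.0151).

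Of the 8 loci with at least 8 intervals and the smallest p on the lower side, Cyp2c69, Serpina3k, C3 and Cyp2c70 differed most, and none passed with edgeR. Cyp2c69, a cytochrome P450 typical of female liver, held 29.3, 27.9 and 25.2 CPM in knockout and 181, 60.3 and 326 CPM in floxed livers over its 20 intervals (log2 fold change -2.79, SE 0.48, edgeR adjusted p = 0.644). The knockouts were alike, while the floxed livers differed widely, with floxed 2 the lowest. Cyp2c genes, like the Cyp2b and Cyp3a genes, are near-identical copies, so their reads may be shared. Serpina3k summed to 96.2, 87.9 and 142 CPM in knockout and 532, 188 and 567 CPM in floxed livers (log2 fold change -1.98, SE 0.36, edgeR adjusted p = 0.644). It passed with the block (adjusted p = 0.0314). C3 summed to 308, 222 and 551 CPM in knockout and 1503, 1042 and 944 CPM in floxed livers (log2 fold change -1.69, SE 0.31, edgeR adjusted p = 0.644). The lowest floxed value was still above knockout 3. Cyp2c70 held 37.9, 32.5 and 33.2 CPM in knockout and 58.6, 79.6 and 111 CPM in floxed livers (log2 fold change -1.27, SE 0.20, edgeR adjusted p = 0.644), with floxed 1 the lowest of its group.

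Cish, a STAT5-induced inhibitor of cytokine and growth hormone signalling, had a lower summed level in each knockout, and its start-site window is shown because it holds the only STAT matches among the windows examined. Only windows of C3, Lifr, Cish, Cyp2c70, Alb and Gpr108 were examined, genes named for their values. The STAT motif was found in 8.30% of 32851 such windows, and a match is only a description of these letters. The RefSeq window (GRCm38.p6, chr9:107296409-107296708, plus strand) has 2 matches in capitals, both in the bases after the start:
Cish: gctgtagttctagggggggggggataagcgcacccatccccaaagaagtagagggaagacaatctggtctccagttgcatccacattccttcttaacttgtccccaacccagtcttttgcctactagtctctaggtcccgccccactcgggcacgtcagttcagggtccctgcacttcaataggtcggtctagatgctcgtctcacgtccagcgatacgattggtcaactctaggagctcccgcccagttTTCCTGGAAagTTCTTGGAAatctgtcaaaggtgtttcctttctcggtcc
The Cish locus summed to 106, 89.8 and 112 CPM in knockouts 1, 2 and 3, and 171, 135 and 183 CPM in floxed livers 1, 2 and 3 (log2 fold change -0.67, SE 0.13, edgeR adjusted p = 0.644). Each knockout lay below each floxed liver, and the locus passed with the block (adjusted p = 0.0242). The interval over the window (107296583 to 107297083) differed little (log2 fold change -0.24, SE 0.19, adjusted p = 0.802 with edgeR). The largest Cish difference was -1.53 (adjusted p = 0.140), 6.16 kb downstream of the start.

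The remaining losses under the same rule were smaller. Fabp5 had 144 ± 15.9 against 214 ± 15.8 CPM (SD, n = 3), or -0.58 as a log2 fold change. Urad, an enzyme of uric acid breakdown, had 61.8 ± 2.19 against 90.9 ± 13.2 CPM (SD, n = 3), and Pdlim1, a cytoskeletal PDZ and LIM domain protein, 91.0 ± 4.29 against 127 ± 12.99 CPM (SD, n = 3). In these 3 loci the groups did not overlap, as in 5.96% of all loci on the lower side. Adjusted p was 0.644 for each with edgeR. Phlda1 (-0.65) and Tafa5 (-0.80, 2 intervals) were the other losses that passed with the block.

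Gains of summed loci were of modest size. Cyp2b13, a cytochrome P450 of female liver and a target of the xenobiotic receptor CAR, held 152, 129 and 108 CPM in knockouts 1, 2 and 3, and 89.2, 91.4 and 71.5 CPM in floxed livers 1, 2 and 3 (log2 fold change 0.63, SE 0.14, edgeR adjusted p = 0.717). Aox3, an aldehyde oxidase, held 148, 109.8 and 145 CPM in knockout and 96.5, 77.4 and 97.9 CPM in floxed livers (log2 fold change 0.57, SE 0.13, edgeR adjusted p = 0.717). In both the groups were separate, and both passed with the block (adjusted p = 0.0314 for each). Other gains under the rule had log2 fold changes between 0.28 and 0.50 and did not pass with edgeR: Tifa, an adaptor of NF-kB signalling, Adamts7, a matrix protease, Nxph1, a secreted neurexin ligand, Kcnab1, a potassium channel subunit, Rgma, a BMP co-receptor, and Itga2, an integrin. Mup3, a major urinary protein, passed with the block (adjusted p = 0.0314). Its values were 301, 150.3 and 216 CPM in knockout and 163, 96.8 and 95.9 CPM in floxed livers (log2 fold change 0.91), and knockout 2 lay below floxed 1. Fbxo15 (0.51) and Olfm3 (0.60, 1 interval) completed the 10 loci passing with the block.

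**Figure D4:**
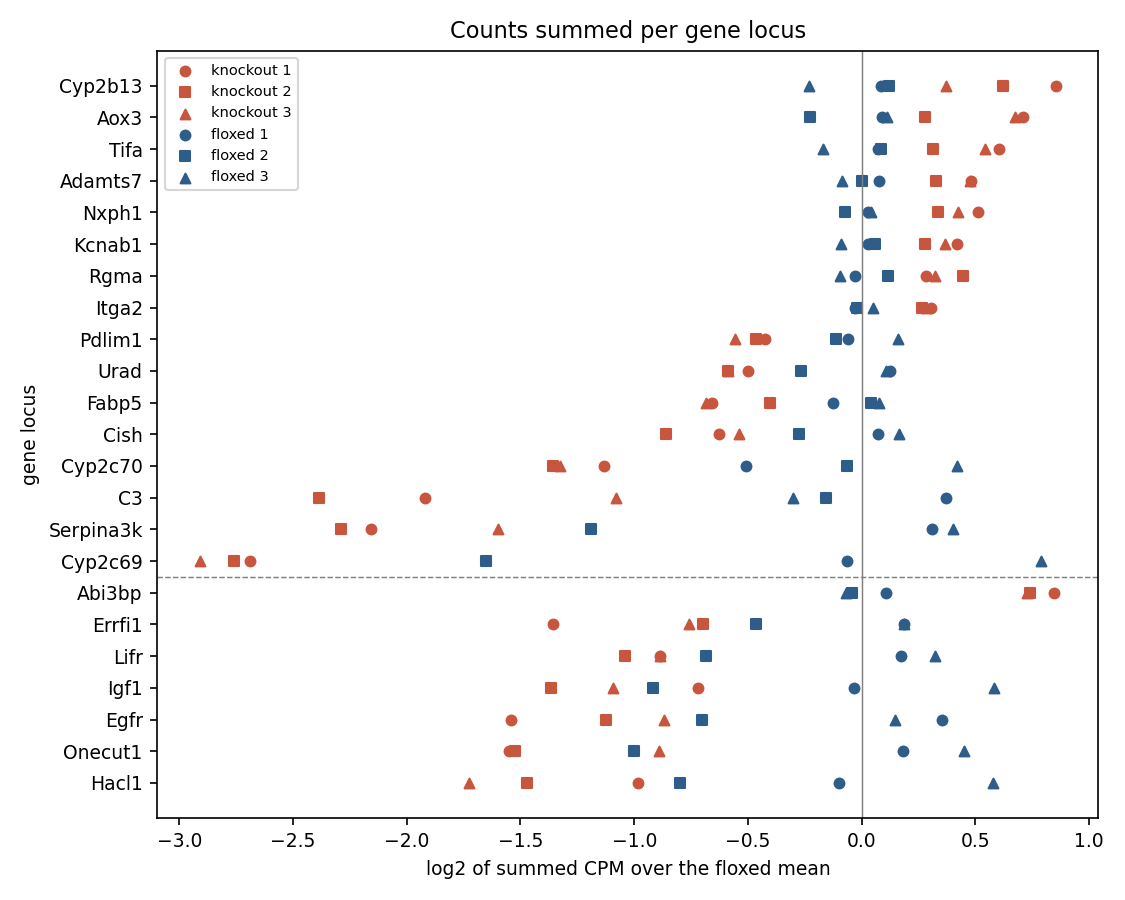
Counts summed per gene locus in each library, as log2 of the summed CPM over the floxed mean, for the 16 loci chosen by rule (above the dashed line) and 7 further loci discussed in the text (below). Knockouts and floxed livers do not overlap in the loci above the line, and floxed 2 is the lowest floxed liver in most loci with large losses.

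Single gains among intervals at or above the median level did not pass, apart from the one upstream of Alb. The one with the largest fold change, inside Abi3bp (chromosome 16, 56548454 to 56548954), held 12.98, 11.5 and 10.5 CPM in knockout and 5.84, 6.54 and 4.59 CPM in floxed livers (log2 fold change 1.05, SE 0.19, edgeR adjusted p = 0.140). Both intervals named near Car3, a carbonic anhydrase of muscle and liver, stood at 0.85 and 0.85. The one at 14861194 to 14861694 on chromosome 3 held 16.5, 13.2 and 17.6 CPM in knockout and 8.78, 8.08 and 9.43 CPM in floxed livers. Khk, the first enzyme of fructose metabolism, had 0.93, Nudt19, a coenzyme A hydrolase, 0.92, and Ddah1, which degrades methylated arginines, 0.88. An interval 49.2 kb from 4930444P10Rik had 0.94. The adjusted p of these 7 intervals lay between 0.132 and 0.203 with edgeR, and their groups are apart by the way they were chosen. DESeq2 and limma-voom alike called 42 higher intervals (0.0476%), of which 5 were near Cyb5a, a cytochrome b5 that supplies electrons to desaturases and P450s. The Cyb5a locus summed to 848, 552 and 735 CPM in knockout and 568, 477 and 493 CPM in floxed livers (log2 fold change 0.47, SE 0.16, edgeR adjusted p = 0.717).

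The calls depended on single animals in both directions. Without knockout 1, or without floxed 1, edgeR called 0 intervals, with 3730 and 4371 at an unadjusted p below 0.05. Without knockout 2 or floxed 3 it called 7 each, all among the 20. Without knockout 3 it called 43, of which 16 were among the 20, and without floxed 2 it called 604 (16 higher, 588 lower), all 20 included. Leaving out both shallow libraries numbered 2 gave 333 calls (0.378%), again with all 20. The sizes moved less than the calls: the absolute log2 fold changes of the 20 were at least 1.08 without knockout 1 and at least 1.05 without floxed 1, and each kept its sign in every fit that tested it. Adjusted p of the 20 with 1 library left out reached 0.256. DESeq2 called 544 (0.617%) and limma-voom 677 (0.768%) from all 6 libraries, both including the 20.

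**Figure D5:**
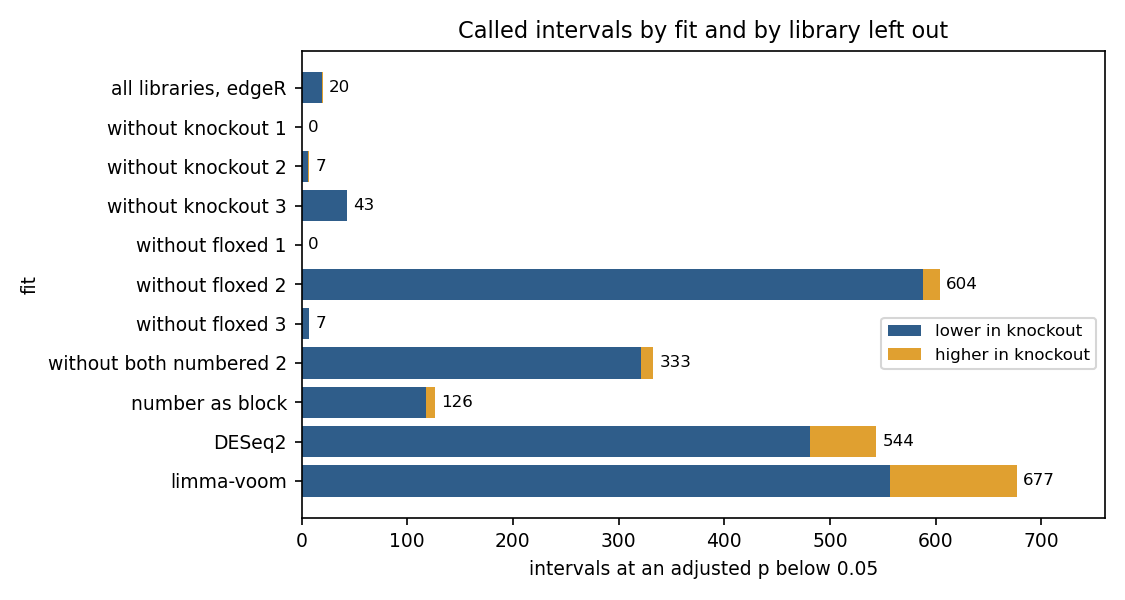
Number of called intervals, lower (blue) and higher (orange) in knockouts, for edgeR on all libraries, edgeR with libraries left out or with the column number as a block, DESeq2 and limma-voom. The count goes from 0 without knockout 1 or floxed 1 to 604 without floxed 2, and most calls are losses in each fit that made any.

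DESeq2 and limma-voom alike called 370 lower intervals (0.419%) near 111 genes. The genes holding most of them are named after their values were seen. Egfr, the receptor of epidermal growth factor, held 35 of its 145 intervals, and Errfi1, the feedback inhibitor of that receptor, 18 of 35. Lifr held 31 and C3 28. Onecut1 (15) and Foxa2 (11) encode hepatocyte transcription factors. Hacl1 held 11, and Cyp2c69, Serpina3k and Trf, the gene of the iron carrier transferrin, 9 each. Of the 370, 287 lay in gene bodies, 76 between genes and 7 at start sites.

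Floxed 2 stood between the genotypes in many of these loci. On a scale where 0 is the knockout mean and 1 the mean of floxed 1 and 3, its median position over the 370 was 0.544, and it lay below the mean of the other floxed livers in 335. Over all intervals floxed 2 correlated most with knockout 2 (0.925), above floxed 1 (0.893) and floxed 3 (0.865). On the first principal component, the axis of largest variation between libraries (42.2%), floxed 2 stood at 92.0 and knockout 2 at 44.7. Floxed 1 came next at 4.79. The part of this shared shift in the place of floxed 2 was not tested. Egfr summed to 506, 677 and 807 CPM in knockouts 1, 2 and 3, and 1885, 907 and 1630.2 CPM in floxed livers 1, 2 and 3 (log2 fold change -1.15, SE 0.26, edgeR adjusted p = 0.717). Floxed 2 was the lowest floxed liver and only modestly above knockout 3, and the locus sum passed without floxed 2 (log2 fold change -1.41, edgeR adjusted p = 0.0170). Errfi1 held 455, 718 and 688 CPM in knockout and 1323, 844 and 1324 CPM in floxed livers (log2 fold change -0.91, SE 0.21, edgeR adjusted p = 0.717), with floxed 2 again the lowest floxed liver. In Onecut1 the values were 254, 259 and 402 CPM in knockout and 843, 372 and 1017 CPM in floxed livers, so that floxed 2 fell below knockout 3 (log2 fold change -1.29, SE 0.33, edgeR adjusted p = 0.717). Lifr summed to 414, 372 and 414 CPM in knockout and 862, 476 and 958 CPM in floxed livers (log2 fold change -0.94, SE 0.22, edgeR adjusted p = 0.717), with floxed 2 at 0.213 on that scale. At C3 (0.895), Cyp2c70 (0.983) and Fabp5 (1.12) floxed 2 stood near the other floxed livers.

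Without floxed 2, 22 loci passed with edgeR, 21 lower and 1 higher (Abi3bp), and without both libraries numbered 2, 7 passed, all lower (0.044%). Cyp2c69, Serpina3k, Serpina1e, Lifr, Gadd45g and Itih3 were among the 7. With 6 libraries, Serpina1e, an alpha-1-antitrypsin gene, held 59.6, 71.5 and 71.5 CPM in knockout and 143, 77.3 and 144 CPM in floxed livers (log2 fold change -0.85, SE 0.21, edgeR adjusted p = 0.717). Floxed 2 was above each knockout there by a small margin and far under floxed 1 and 3. Leaving out any other single library gave 0 loci with edgeR. Floxed 2 lay nearer the knockouts than floxed 1 and 3 in many loci, so leaving it out widens their difference. The calls made without floxed 2 are therefore no separate support. Floxed 2 was also a shallow library, and whether depth has a part in its place was not tested.

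Gene lists were described by the share of their intervals with an unadjusted p below 0.05, beside 3.85% lower and 2.81% higher over all 80889 intervals assigned to genes, and by their summed loci, which are counted at the same p and whose median log2 fold change over all genes was -0.01. Some genes, such as Lifr, Trf and Alas1, stand in more than 1 list. No locus of any list was called by edgeR. Complement genes had 70 of 207 intervals (33.8%) lower and 3 (1.45%) higher. C3 alone held 42 of the lower ones. The complement loci at an unadjusted p below 0.05 were 2 lower and 1 higher of 29 loci, median -0.09, the higher one being C4b (0.26). Summed levels over the list were 1676 to 2219 CPM in knockout and 2511 to 3391 CPM in floxed livers, without overlap. C3 carried that separation. With C3 left out the groups overlap, and floxed 2 lies below knockouts 1 and 3.

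Other plasma protein lists also held lower intervals at that p. Serpins had 61 of 185 intervals (33.0%) lower, with 5 lower and 0 higher of 18 loci and a median of -0.21, led by Serpina3k, Serpina1e (-0.85) and Serpina1c (-0.69). Acute-phase genes had 41 of 161 intervals (25.5%) lower, with 5 lower and 0 higher of 19 loci and a median of -0.08. Hamp, the iron hormone hepcidin, had -0.60, Hpx, the haem carrier haemopexin, -0.53, and Itih3, a hyaluronan-binding plasma protein, -0.57. Hamp summed to 285, 295 and 303 CPM in knockout and 347, 429.6 and 563 CPM in floxed livers, with separate groups. The groups overlapped at Itih3, where floxed 2 (102 CPM) lay below knockout 1 (109 CPM). Coagulation genes had 51 of 262 intervals (19.5%) lower, with 4 lower and 2 higher of 25 loci and a median of 0.01. The 3 fibrinogen chains, which are neighbours on chromosome 3, were at -0.65 (Fga), -0.70 (Fgb) and -0.70 (Fgg). At Fga and Fgg the groups overlapped, with floxed 2 (352 and 447 CPM) below knockout 1 (359 and 517 CPM). Fgb held 495, 443 and 485 CPM in knockout and 767, 516 and 1027 CPM in floxed livers, with floxed 2 close to the knockouts. Albumin and other plasma carriers had 53 of 264 intervals (20.1%) lower, with 3 lower and 0 higher of 18 loci and a median of -0.02, with Trf at -0.56, Apoa5 at -0.72 and Apoa1 at -0.47. At Apoa5 and Apoa1 the groups overlapped, with floxed 2 (295 and 311 CPM) below knockout 1 (390 and 365 CPM).

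Iron and haem genes had 69 of 244 intervals (28.3%) lower, with 4 lower and 0 higher of 22 loci and a median of -0.0039. Alas1, the first enzyme of haem synthesis, summed to 101, 94.7 and 102 CPM in knockouts 1, 2 and 3, and 358, 125 and 192 CPM in floxed livers 1, 2 and 3 (log2 fold change -1.18, SE 0.30, edgeR adjusted p = 0.717). The knockouts were nearly alike and below all floxed livers, while floxed 1 stood far above floxed 2 and 3. Trf held 639, 509 and 542 CPM in knockout and 1004, 738 and 749 CPM in floxed livers (log2 fold change -0.56, SE 0.15, edgeR adjusted p = 0.717), with the groups apart. The list as a whole summed to 2968 to 3475 CPM in knockout and 3367 to 4300.5 CPM in floxed livers. Of its 69 lower intervals, Alas1, Trf, Hpx and Hamp held 59.

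Signalling and regulatory lists held such intervals in a few loci. Growth hormone and IGF genes had 58 of 258 intervals (22.5%) lower (3 lower and 0 higher of 16 loci, median -0.18), namely Cish, Igf1 and Prlr. Igf1, the circulating mediator of growth hormone, held 292, 187 and 226 CPM in knockout and 469, 254 and 719 CPM in floxed livers (log2 fold change -1.03, SE 0.32, edgeR adjusted p = 0.717). Here floxed 2 lay below knockout 1. Prlr, the prolactin receptor, was at -0.43, with floxed 2 (202 CPM) below knockout 1 (211 CPM). IL6-family receptors and their signalling genes had 57 of 259 intervals (22.01%) lower, with 2 lower and 1 higher of 20 loci and a median of -0.04. Lifr held 50 of those 57 intervals. Socs3, a feedback inhibitor of STAT3, stood at -0.29. Hepatocyte transcription factors had 142 of 624 intervals (22.8%) lower, with 3 lower and 1 higher of 24 loci and a median of -0.03. Onecut1 (-1.29), Foxa2 (-0.52) and Rxra (-0.36), the shared partner of nuclear receptors, held 45, 36 and 49 of the 142. Foxa2 summed to 550.1, 472 and 653 CPM in knockout and 879.7, 633 and 897 CPM in floxed livers, where knockout 3 exceeded floxed 2.

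Genes with sex-dependent expression lay on both sides in these females. Female-biased genes had 93 of 325 intervals (28.6%) lower and 16 (4.92%) higher (7 lower and 2 higher of 26 loci, median -0.00066). Lifr and Cyp2c69 held 70 of the 93 lower intervals, and Cyp2b13 was on the higher side. Male-biased genes had 33 of 179 intervals (18.4%) lower and 23 (12.8%) higher (3 lower and 4 higher of 24 loci, median 0.06). The higher loci at that p were Mup3, Mup7 (0.50), Mup20 and Cyp7b1, an oxysterol hydroxylase (0.35), and the lower ones Serpina1e, Selenbp2 and Nudt7. Mup genes are near-identical copies, so which of them carries the reads is uncertain.

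CAR and PXR targets, the detoxification genes induced by those xenobiotic receptors, were the list with the largest higher share: 52 (16.3%) of 319 intervals, against 23 lower (7.21%). Its loci counted 3 lower and 4 higher of 31 loci, median 0.14. Cyp2b13, Abcb1a, Gsta3 and Gstm2 were the higher loci at that p, and Alas1, Gadd45g (-0.61) and Sult5a1 lower. Summed levels were 2911 to 4305 CPM in knockout and 2931 to 3334 CPM in floxed livers, with knockout 1 above the floxed range, knockout 3 within it and knockout 2 below it.

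Metabolic lists lay closer to the background. Urea cycle and amino acid genes had 68 of 529 intervals (12.8%) lower, with 2 lower and 1 higher of 25 loci and a median of -0.04. Ass1, the argininosuccinate synthase of the urea cycle, supplied 37 of the 68 and held 505, 1107 and 338 CPM in knockout and 635, 1969 and 1410.3 CPM in floxed livers (log2 fold change -1.04, SE 0.46, edgeR adjusted p = 0.717), with the groups overlapping. Arg1, the last enzyme of that cycle, was at 0.23. Bile acid genes had 28 of 260 intervals (10.8%) lower, with 3 lower and 1 higher of 22 loci and a median of -0.00073, with Cyp2c70, Abcb11, the bile salt export pump (-0.43), and Cyp7a1, which sets the pace of bile acid synthesis (-0.39). Cyp7a1 held 221, 167 and 258 CPM in knockout and 276, 268 and 303 CPM in floxed livers, with separate groups. Fatty acid binding and uptake genes had 23 of 172 intervals (13.4%) lower, with 2 lower and 2 higher of 17 loci and a median of -0.02, with Fabp5 lower and Cd36, a fatty acid transporter, at 0.31.

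Fatty acid oxidation genes had 20 of 245 intervals (8.16%) lower, with 2 lower and 1 higher of 26 loci and a median of -0.07, and fatty acid and triglyceride synthesis 32 of 460 intervals (6.96%) lower, with 4 lower and 0 higher of 25 loci and a median of -0.10, with Acly, the source of cytosolic acetyl-CoA, at -0.45 and Fads2, a desaturase, at -0.33. Cholesterol genes had 16 of 254 intervals (6.30%) lower, with 0 lower and 1 higher of 25 loci and a median of -0.06. Gluconeogenesis and fasting genes had 15 of 350 intervals (4.29%) lower, with 0 lower and 1 higher of 20 loci and a median of -0.02, with Pdk4, which holds back glucose oxidation, at 0.37. The circadian clock had 6 of 239 intervals (2.51%) lower and the same number higher (0 lower and 0 higher of 19 loci, median 0.11). Dbp, a clock output factor, held 213, 69.0 and 49.4 CPM in knockout and 69.7, 57.4 and 70.3 CPM in floxed livers, so that knockout 1 alone stood out (log2 fold change 0.75, and -0.16 without it).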

How the data were processed

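ATAC-seq was made from liver nuclei, 1 library per animal. The authors deposited whole-number counts of reads per interval and library (mm10, per the labels) for 88203 intervals of 501 bp, 44011 called in knockout and 44192 in floxed livers. The submitters' processing notes name MACS2 2.2.7.1, Bowtie2 2.4.2, Trim Galore 0.6.7, HOMER 4.11, ChIPseeker, DESeq2 and bedtools but give no order. Sources used here do not give the treatment of duplicates, mitochondrial reads and the transposase offset, nor say whether libraries were pooled for calling. Intervals were chosen on the libraries compared, which may leave out regions open in 1 animal. The high-fat table was not analysed here.

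Genotype was fitted with the quasi-likelihood test of edgeR 4.0.16 (R 4.3.3), with TMM scaling and Benjamini-Hochberg adjustment over all features at 0.05. Its filterByExpr filter removed nothing. Alternatives were limma 3.58.1 (voom, quality weights), DESeq2 1.42.0 and those in the closing section. The scripts were tested on simulated data. The common biological coefficient of variation was 0.187 for intervals and 0.124 for loci, and totals per library of 15531451 to 34981046 counts give a median of 127 to 268 counts per interval, while at the weakest called intervals counting error in the libraries numbered 2 is about as large as this variation. The chi-square of 2 libraries of a group was at least 7.41 times its degrees of freedom, so none was taken for a repeat. Nothing beyond the titles says that libraries are separate animals; otherwise p-values measure technical spread. Genes and start sites came from RefSeq tables of GRCm38.p6, the same assembly as mm10. Each interval was assigned to the closest protein-coding gene up to 50000 bp away (80889 intervals, 15921 genes), and 17491 of 21896 genes had a start site. Chromosome 18, Serpina3k, Phlda1 and Fabp5 had none, so their intervals are classed as gene body or intergenic only.

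Libraries with the same column number were compared across genotypes by the correlation of their deviations from the group means. Over intervals it was 0.184, 0.533 and 0.189 for numbers 1, 2 and 3. Only number 2 stood apart there, and its libraries are the shallow ones. Knockout 1 correlated more with floxed 3 (0.278), and knockout 3 correlated about as much with floxed 1 (0.184) as with floxed 3. Over gene loci the correlation was 0.308, 0.689 and 0.441 for numbers 1, 2 and 3. At that level knockout 3 correlated more with floxed 3 than with floxed 1 (0.134). Knockout 1 again correlated more with floxed 3 (0.352). Deviations within a group cancel out, so these values are not independent. They do not show that the numbers pair libraries, and the titles give no pairing. The fit with the number as a block is therefore an alternative only.

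The comparison and lists were chosen with earlier results of these data known. Named were genes with a call, Matr3, and the 8 intervals per direction with the smallest edgeR p at or above the median level with groups apart. The 8 loci per direction of at least 8 intervals, up to 3 genes per list and genes holding most intervals called by DESeq2 and limma-voom alike were named too. Of the list genes, 14 had no interval (C1qa, F8 and Lcn2 among them). Tafa5, Fbxo15, Olfm3 and Mup3, passing with the block, genes named only as passing an unadjusted p, and genes passing without libraries numbered 2 were named after their values were seen. Some genes of the lists are counted in them but not reported here by name.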

Additional observations from a re-analysis of the deposited data

How the results depend on the processing

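Replicate numbers here are column numbers. DESeq2 called 544 intervals and 32 loci, and limma-voom 677 intervals and 1 locus. With the replicate block 126 intervals and 10 loci passed, and without both libraries numbered 2, 333 and 7. Leaving out 1 library at a time gave 0 to 604 intervals and 0 to 22 loci. Robust dispersions gave 15 intervals, only features at or above the median level 25, total-count scaling 23, and median-of-ratios scaling, loess offsets and no filter 20 each. Not all of these are the same intervals. Of the 20 calls, robust dispersions kept 14, loess offsets 17 and the restriction to the median level 18. Loci stayed at 0 in those settings and with genes assigned within 10000 bp. The block changed no call of a named interval. The Matr3 interval, near 0 with all libraries, turned to -0.060 with loess offsets and -0.025 among features at or above the median level. It ranged from -0.043 to 0.12 with 1 library left out. Dbp stood at 0.75, with a range of -0.16 (without knockout 1) to 1.11. Among the other named intervals and loci no direction reversed. Depth limits the shallow libraries numbered 2 most, and the smallest called difference was 1.04 on the log2 scale (Gpr108).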
